A study of Mus musculus with 12 samples.

Results

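The genes described here are 10 members of the Wnt pathway, namely the ligands Wnt5a and Wnt5b, the secreted antagonists Frzb, Dkk2, Dkk3, Sfrp1 and Sfrp2, the target gene Axin2 and the nuclear factors Lef1 and Tcf7l2, out of 18193 genes measured. They were measured in C790 cells, an Nras-mutant murine melanoma line, on 12 Affymetrix arrays at day 20 of partial reprogramming. All cells, control cells included, carried an M2-mCherry vector and a lentiviral vector with Oct4, Klf4 and Sox2 under a tetracycline-responsive element and a blasticidin resistance gene. Control (−dox) cells were kept without doxycycline, reprogrammed (+dox) cells received it and were selected with blasticidin, and both then received DMSO or the MEK inhibitor trametinib for 72 h, which gave 4 groups of 3 arrays. Whether −dox cells were selected with blasticidin too is not clearly stated. An effect of doxycycline itself, or of such selection if it differed, cannot be told apart from that of the factors on these arrays. The labels do not say whether the 3 arrays of a group came from separate cultures, and the p-values therefore reflect only how far these arrays spread.

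The 10 genes had 25 probe sets annotated to 1 gene only, and 8 of them had more than 1. The probe set that stands for a gene was chosen by its mean over the 12 arrays, of which the highest was taken, and this choice used no comparison between groups. The genes themselves were selected on sight of their trametinib responses in these data, so that the p-values below give the place of a gene in the fit across all genes and are no independent evidence.

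Wnt proteins are secreted ligands that bind Frizzled receptors. In the canonical branch, the signal stabilises β-catenin, which then works in the nucleus with factors of the TCF/LEF family, while other branches act on cell polarity and movement without β-catenin. Secreted antagonists work outside the cell, where proteins of the SFRP family, Frzb among them, bind Wnt ligands. Members of the Dickkopf family such as Dkk2 bind the LRP co-receptors. In melanoma, Wnt5a is known as a ligand of the branch without β-catenin in invasive cells with low expression of melanocyte genes.

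Values are log2 intensities, and replicates are given in the order 1, 2 and 3. A background level of 4.86 was taken from 86 probe sets of chemosensory receptor genes (olfactory, vomeronasal and taste), and where only 1 group mean of a comparison was above this level, its change is stated as at least the gap between that mean and the level. Changes and differences called fitted come from values partly under this level and are no exact sizes. Of the 40 group means of the 10 genes, 17 were under background, of which 4 with DMSO and 6 with trametinib in −dox cells and 5 with DMSO and 2 with trametinib in +dox cells. Sfrp2 was under background in all 4 groups, and Wnt5b, Sfrp1 and Tcf7l2 were above it in all 4.

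The MEK pathway genes Dusp6, Etv5 and Spry4 fell with trametinib, by fitted log2 differences of −8.11, −7.35 and −3.56 in −dox and of −6.90, −7.42 and −3.28 in +dox cells. Of the reprogramming factors, Pou5f1 (Oct4) had a fitted log2 change of 0.82 with dox under DMSO (adjusted p = 0.016). With trametinib in −dox cells its fitted change was 0.86 (adjusted p = 0.0032), and with dox under trametinib its change was 0.38 (adjusted p = 0.31). With dox under DMSO, Sox2 had a log2 change of −1.53 (adjusted p = 0.091) and Klf4 of −0.15 (adjusted p = 0.80). Whether these probe sets lie in the part carried by the vector is not given in the sources used here. The melanocyte genes Mitf, Pmel and Sox10 were above background in every group, and Tyr, Tyrp1, Dct and Mlana were under it on all 12 arrays. Mitf rose with trametinib in +dox cells by 1.22 (adjusted p = 0.0077) and had a change of 0.83 in −dox cells (adjusted p = 0.058). None of these 7 melanocyte genes passed the test with dox. The summed level of 7 fibroblast genes (log2 of the summed intensities, 5 of 7 above background) differed by both dox and drug: under DMSO it was 11.7 to 11.99 in −dox and 9.14 to 10.04 in +dox cells, and under trametinib 13.1 to 13.4 and 10.8 to 11.1. With trametinib Col1a1, Col3a1 and Dcn rose in both cell states, while Pdgfra fell by 0.96 in −dox cells (adjusted p = 0.030), and Pdgfrb had a change of −1.02 there (adjusted p = 0.20). Under DMSO 5 of the 7 fell with dox. The summed level of 7 leukocyte genes was 7.86 to 9.34 on the +dox DMSO and 9.24 to 9.80 on the +dox trametinib arrays, and 7.24 to 8.35 on all −dox arrays. Among them the T cell gene Cd3g rose with trametinib in +dox cells from a mean of 4.83 to 9.01 (adjusted p = 6.68e-07). Cd3e, also a T cell gene, had means of 5.56 and 5.68 there and did not pass (adjusted p = 0.49). Nor did Cd79a, Cd68 and Lyz2 pass with trametinib in +dox cells (adjusted p = 0.38, 0.061 and 0.99). Cd3g, like Frzb, had a mean above background in the +dox trametinib group only. The myeloid gene Itgam fell from 5.60 to 3.72 (adjusted p = 0.013), and the pan-leukocyte gene Ptprc was under background on all 12 arrays. Of 5 epithelial genes, with sums of 6.86 to 7.17 and 7.18 to 7.46 in the +dox DMSO and +dox trametinib groups, only Cdh1 passed. It rose from a mean of 3.34, under background, to 4.99, just above it (adjusted p = 7.18e-04), so that its size is not exact. None of 4 endothelial genes passed with trametinib. The part of these markers in the results was not tested. The −dox DMSO replicate 1 was the array least like the others of its group, with a correlation over genes of 0.979 and 0.984 against 0.997 for the other two, and results that depend on it are given with and without it.

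**Figure D1:**
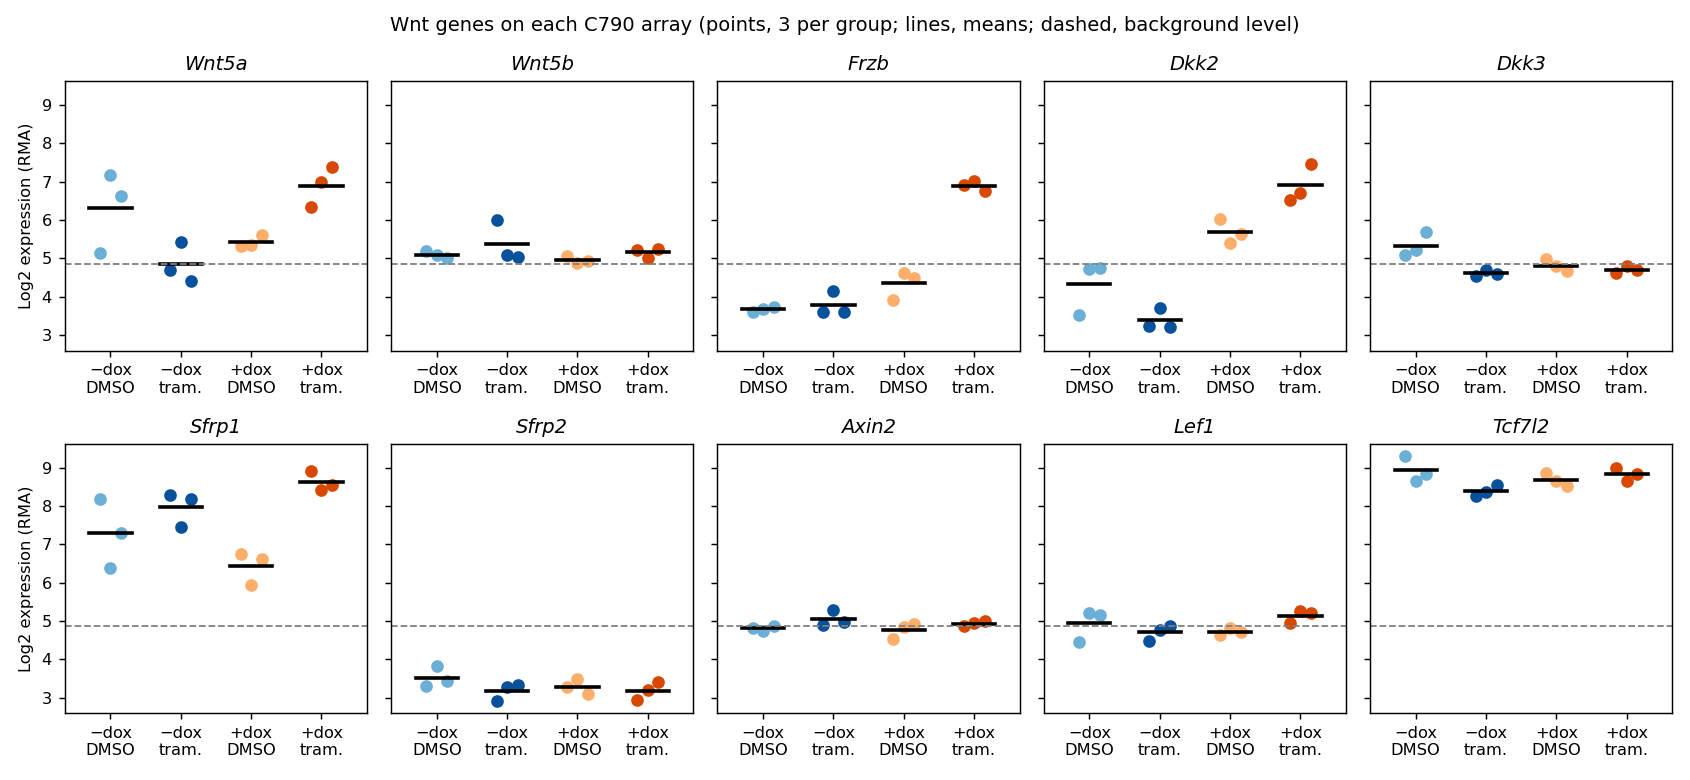
Log2 expression (RMA) of the 10 Wnt genes on each array, 1 panel per gene, with 3 points per group, a line at the group mean and the background level of 4.86 dashed. Frzb is above background on the 3 +dox trametinib arrays only, Dkk2 on all +dox arrays and no −dox array, and Wnt5a is lower with trametinib in −dox and higher in +dox cells.

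Wnt5a moved in opposite directions with trametinib. On the −dox DMSO arrays its log2 expression was 5.15, 7.17 and 6.62, and on the −dox trametinib arrays 4.71, 5.42 and 4.40. On the +dox DMSO arrays it was 5.33, 5.36 and 5.60, and on the +dox trametinib arrays 6.33, 6.99 and 7.38. In −dox cells the groups overlapped, because −dox DMSO replicate 1 was lower than −dox trametinib replicate 2, whereas in +dox cells every trametinib array was above every DMSO array. Wnt5a fell in −dox cells by at least 1.45 (adjusted p = 0.038) and rose in +dox cells by 1.47 ± 0.45 (SE, adjusted p = 0.033). By group mean the order was +dox trametinib, −dox DMSO, +dox DMSO and −dox trametinib, and the arrays of each pair of neighbours in this order overlapped.

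The fitted difference between both responses of Wnt5a was 2.94 ± 0.64 (SE) and did not pass the test (adjusted p = 0.0997), but passed it with the replicate number as a block (adjusted p = 0.043). Its size is not exact, because the mean of the −dox trametinib arrays, 4.84, was under background. Without −dox DMSO replicate 1 the fitted difference was 3.52 (adjusted p = 0.0085), and the fitted change in −dox cells was −2.05 (adjusted p = 0.0016). The fall in −dox cells no longer passed when −dox DMSO replicate 2 or 3 (adjusted p = 0.13 and 0.11) or −dox trametinib replicate 1 or 3 (0.094 and 0.13) was left out. The same held for +dox DMSO replicates 1, 2 and 3 (0.051, 0.053 and 0.053) and +dox trametinib replicate 2 (0.052), arrays that enter only the common estimate of the spread. The rise in +dox cells no longer passed when +dox DMSO replicate 1, 2 or 3 (0.083, 0.087 and 0.066) or +dox trametinib replicate 2 or 3 (0.085 and 0.12) was left out. Neither the fall nor the rise changed its direction when any 1 array was left out, with fitted changes of −2.05 to −1.04 and of 1.23 to 1.76.

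The 3 other probe sets of Wnt5a were close to or under background. Probe set 1448818_at rose in +dox cells by at least 0.43 (adjusted p = 0.011 among all 34945 probe sets of 1 gene), and both its −dox means, 4.72 with DMSO and 4.04 with trametinib, were under background (adjusted p = 0.069), so that no change can be read there. Probe set 1437673_at had means of 5.12 and 4.34 in −dox cells (adjusted p = 0.12) and of 4.47 and 4.91 in +dox cells (adjusted p = 0.41), and 1456976_at was under background in every group. The 5 genes with the most similar profiles over the 12 arrays, each centred on its own mean, were Cdh10, Alcam, Rasgrp3, Zfhx4 and Pde8b, with root mean square differences from Wnt5a of 0.389, 0.500, 0.555, 0.573 and 0.578 among 12484 genes above background in at least 1 group. The root mean square deviation of Wnt5a from its own mean was 0.951.

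Wnt5b, a ligand of the same subfamily, did not pass the test with trametinib in either cell state. Its log2 expression was 5.20, 5.08 and 5.0 in −dox DMSO and 5.99, 5.08 and 5.04 in −dox trametinib cells. In +dox cells it was 5.05, 4.89 and 4.93 with DMSO and 5.23, 5.01 and 5.24 with trametinib. The higher mean of the −dox trametinib group came from replicate 1, and the other two arrays of this group were within the range of the −dox DMSO arrays. Without that array the change in −dox cells was −0.03. The second probe set of Wnt5b, 1439373_x_at, had means under background in all 4 groups.

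Among the secreted antagonists, Frzb, Dkk2 and Sfrp1 rose with trametinib in +dox cells and Dkk3 fell with it in −dox cells. Frzb, also called sFRP3, had log2 values of 3.61, 3.68 and 3.72 in −dox DMSO and of 3.6, 4.16 and 3.6 in −dox trametinib cells. In +dox cells they were 3.91, 4.63 and 4.50 with DMSO and 6.92, 7.01 and 6.77 with trametinib. The 3 +dox trametinib arrays thus stood above all others, and the other 9 were under background. Frzb rose with trametinib in +dox cells by at least 2.04 (adjusted p = 1.22e-05), whereas in −dox cells no size can be given (adjusted p = 0.72). Frzb was the only one of the 10 genes that passed the test of the difference between both responses, at 2.44 ± 0.27 (SE, adjusted p = 0.0075), and it kept this call without any 1 array (highest adjusted p = 0.031); the size is not exact because the −dox values were under background. Its second probe set, 1448424_at, had 4.72, 5.20 and 4.89 on the +dox trametinib arrays and 2.71 to 3.23 on the other 9, all but 2 of its 12 values being under background.

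Dkk2 binds the LRP co-receptors and, depending on the cell, blocks or weakly activates the canonical branch. In −dox cells its log2 expression was 3.53, 4.73 and 4.74 with DMSO and 3.23, 3.70 and 3.21 with trametinib. In +dox cells it was 6.03, 5.39 and 5.63 with DMSO and 6.53, 6.72 and 7.47 with trametinib. Every +dox array was above every −dox array, and within the +dox cells every trametinib array was above every DMSO array. Dkk2 rose with trametinib in +dox cells by 1.22 ± 0.34 (SE, adjusted p = 0.020). Leaving out +dox DMSO replicate 2 or 3 (adjusted p = 0.076 and 0.060) or +dox trametinib replicate 3 (0.081) ended this call.

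In −dox cells both group means of Dkk2 were under background, so no size is given there, and the fitted change was negative (adjusted p = 0.067). The groups overlapped through −dox DMSO replicate 1, and without this array the adjusted p was 0.0052. The difference between both responses of Dkk2 did not pass the test (adjusted p = 0.10) and passed it without −dox DMSO replicate 1 (adjusted p = 0.016). No other probe set of 1 gene measured Dkk2.

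Sfrp1 had log2 values of 8.18, 6.38 and 7.31 in −dox DMSO and of 8.29, 7.46 and 8.18 in −dox trametinib cells. Values in +dox cells were 6.74, 5.93 and 6.62 with DMSO and 8.91, 8.43 and 8.55 with trametinib. In −dox cells the groups overlapped, while in +dox cells the lowest trametinib array was well above the highest DMSO array. Sfrp1 rose with trametinib in +dox cells by 2.20 ± 0.40 (SE, adjusted p = 0.0018) and kept this call without any 1 array. In −dox cells the change was 0.69 ± 0.40 (SE, adjusted p = 0.26), or 1.13 without −dox DMSO replicate 1 (adjusted p = 0.035), and the difference between both responses was 1.51 ± 0.56 (SE, adjusted p = 0.31). All 4 other probe sets of Sfrp1 had positive changes in both cell states, and 3 of them rose in +dox cells, by 1.03, by 1.58 and by at least 2.45 (adjusted p = 0.0026, 0.0018 and 0.0012). In −dox cells 1 of the 4 rose, by 0.77 (adjusted p = 0.016).

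Dkk3, a Dickkopf relative that does not act on the canonical branch in the way of the other members, had log2 values of 5.08, 5.21 and 5.70 in −dox DMSO and of 4.53, 4.71 and 4.60 in −dox trametinib cells. In +dox cells they were 4.98, 4.79 and 4.67 with DMSO and 4.63, 4.79 and 4.70 with trametinib. The −dox DMSO arrays were above all others, and the −dox trametinib group was under background. Dkk3 fell with trametinib in −dox cells by at least 0.47 (adjusted p = 0.0058) and kept this call without any 1 array (highest adjusted p = 0.023). In +dox cells both means were under background (adjusted p = 0.69). The second probe set of Dkk3, 1417312_at, was under background on all 12 arrays and also passed the test in −dox cells as a fall (adjusted p = 0.0017). Sfrp2 was between 2.91 and 3.82 on the 12 arrays, all under background, so no change of it could be read.

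The promoters of Frzb and Dkk2 are shown because both genes rose with trametinib in +dox cells. The promoter sequences used here, from RefSeq on GRCm38.p6, cover 7 of the 10 genes with 13 promoters; those of Wnt5a, Dkk3 and Sfrp1 were not analysed here. The 250 bases before the start of Frzb are chr2:80447397-80447646 on the minus strand, and those of Dkk2 are chr3:132085042-132085291 on the plus strand. Both are written 5′ to 3′ on the gene's strand. Capitals mark CTTTGA, the core of the motif of TCF/LEF factors, searched on both strands.
Frzb: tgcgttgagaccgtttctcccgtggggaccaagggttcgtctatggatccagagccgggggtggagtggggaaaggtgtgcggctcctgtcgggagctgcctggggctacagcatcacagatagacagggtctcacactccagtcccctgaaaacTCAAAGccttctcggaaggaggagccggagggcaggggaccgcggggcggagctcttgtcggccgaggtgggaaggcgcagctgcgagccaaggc
Dkk2: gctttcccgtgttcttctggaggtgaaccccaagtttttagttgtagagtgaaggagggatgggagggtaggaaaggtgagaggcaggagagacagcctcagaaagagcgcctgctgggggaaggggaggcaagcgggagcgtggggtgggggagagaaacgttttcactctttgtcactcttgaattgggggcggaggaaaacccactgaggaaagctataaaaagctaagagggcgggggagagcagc
The Frzb promoter held 1 match, on the opposite strand, with its first base 95 before the start, and the Dkk2 promoter held none. Of the 13 promoters of these 7 genes, 3 held the motif, against 4544 of all 32851 promoters of this length (13.8%).

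Axin2, a scaffold protein of the β-catenin destruction complex and a widely used target of the canonical branch, stayed close to background. Its log2 expression was 4.83, 4.74 and 4.88 in −dox DMSO and 4.91, 5.28 and 4.98 in −dox trametinib cells. In +dox cells it was 4.53, 4.85 and 4.92 with DMSO and 4.86, 4.94 and 5.0 with trametinib. Every −dox trametinib array was above every −dox DMSO array, by little, and the test was not passed in −dox (change at least 0.20, adjusted p = 0.22) or +dox cells (adjusted p = 0.41). The second probe set of Axin2, 1421341_at, was under background on all 12 arrays.

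Lef1 had log2 values of 4.46, 5.22 and 5.15 in −dox DMSO and of 4.49, 4.78 and 4.86 in −dox trametinib cells. The +dox cells had 4.63, 4.81 and 4.71 with DMSO and 4.96, 5.27 and 5.20 with trametinib. The +dox trametinib arrays were above the +dox DMSO arrays without overlap, while −dox DMSO replicate 1 was at the low end of its group. The change in +dox cells, where all 3 DMSO arrays were under background, was at least 0.28 and did not pass the test (adjusted p = 0.13), but passed it with the replicate number as a block (adjusted p = 0.029) and without −dox DMSO replicate 1 (adjusted p = 0.020). In −dox cells the trametinib mean, 4.71, was under background and the DMSO mean, 4.94, just above it; the test was not passed (adjusted p = 0.43) and was passed without that array (adjusted p = 0.027). The difference between both responses of Lef1 did not pass (adjusted p = 0.36) and passed without that array (adjusted p = 0.046), and no size is given for it. The second probe set of Lef1, 1421299_a_at, was under background on all 12 arrays.

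Tcf7l2, also known as TCF4, had log2 values of 9.31, 8.66 and 8.85 in −dox DMSO and of 8.27, 8.38 and 8.56 in −dox trametinib cells. In +dox cells they were 8.87, 8.67 and 8.53 with DMSO and 8.99, 8.67 and 8.84 with trametinib. The −dox trametinib arrays were under all −dox DMSO arrays, and in +dox cells both groups overlapped. Tcf7l2 fell with trametinib in −dox cells by 0.54 ± 0.17 (SE, adjusted p = 0.039). The call was lost when any of these arrays was left out: −dox DMSO replicate 1 or 3 (adjusted p = 0.10 and 0.066), −dox trametinib replicate 1, 2 or 3 (0.12, 0.095 and 0.052), +dox DMSO replicate 2 (0.054) or +dox trametinib replicate 3 (0.054). The change in +dox cells was 0.14 ± 0.17 (SE, adjusted p = 0.62), and the difference between both responses was 0.68 ± 0.24 (SE, adjusted p = 0.27). Of its 3 other probe sets, none passed the limma test with trametinib in either cell state, and their changes ran from −0.46 to 0.00 in −dox cells.

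Over the 10 genes, 3 passed the limma test, all as falls, with trametinib in −dox cells, where 22.4% of all genes passed, 11.6% as rises and 10.8% as falls. In +dox cells 4 passed, all as rises, where 26.2% of all genes passed, 13.8% as rises and 12.5% as falls. The groups were without overlap for 3 of the 10 genes in −dox and for 5 in +dox cells, against 35.6% and 40.7% of all genes. The median fitted change of the 10 genes was −0.29 in −dox and 0.32 in +dox cells, and that of all genes 0.06 and 0.02. Wnt5a, Dkk2, Lef1 and Tcf7l2 had fitted changes of opposite sign in both cell states, those of Dkk2 in −dox cells coming from means under background, that is 4 of 10 genes against 27.5% of all genes. Of these only Wnt5a passed in both cell states. Lef1 passed in neither, and its −dox trametinib and +dox DMSO means were under background. Dkk2 did not pass in −dox cells, nor Tcf7l2 in +dox cells, where its change was 0.14 (adjusted p = 0.62). Of the 2804 genes that passed the test in both cell states, 10 had opposite signs, and Wnt5a was 1 of them. The test of the difference between both responses was passed by Frzb alone among the 10 genes and by 0.33% of all genes, 0.258% higher and 0.0715% lower in +dox cells.

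**Figure D2:**
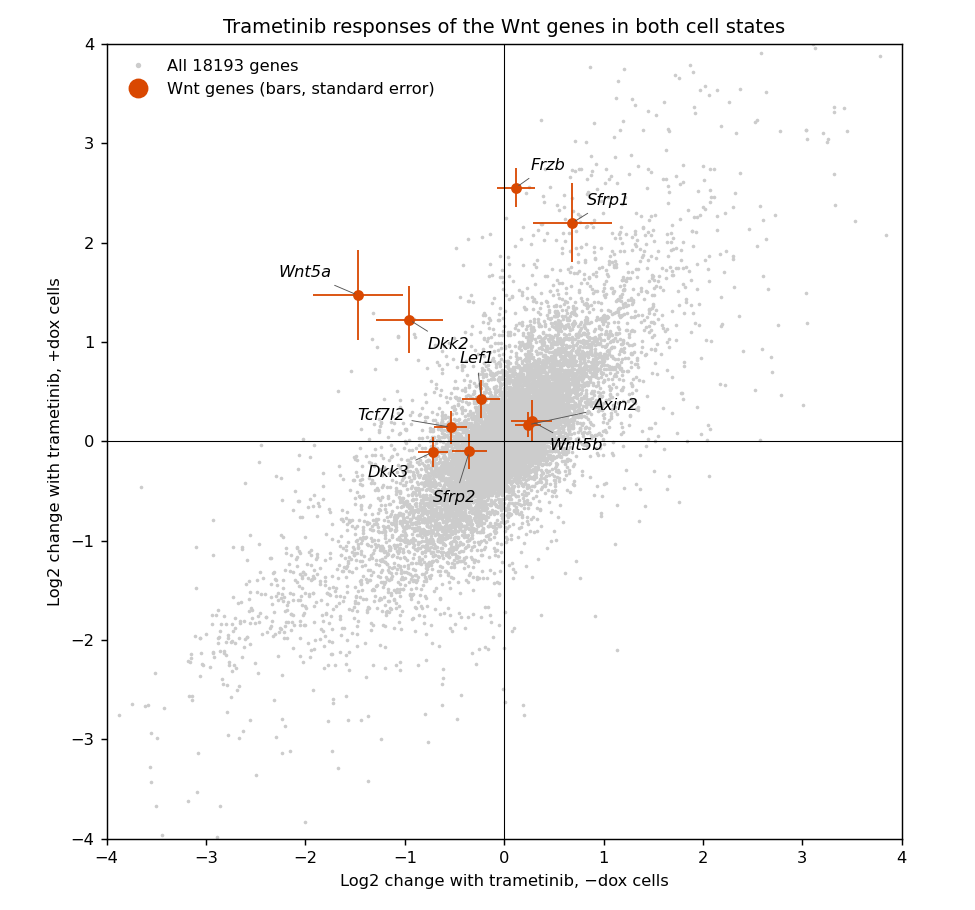
Fitted log2 response to trametinib of −dox cells (x axis) and of +dox cells (y axis) for the 10 Wnt genes, with bars of 1 SE, and for all 18193 genes in grey; 53 genes lie outside the axes. Wnt5a and Dkk2 lie in the quadrant of lower values in −dox and higher values in +dox cells, and Frzb is near 0 in −dox cells, where it was under background.

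**Figure D3:**
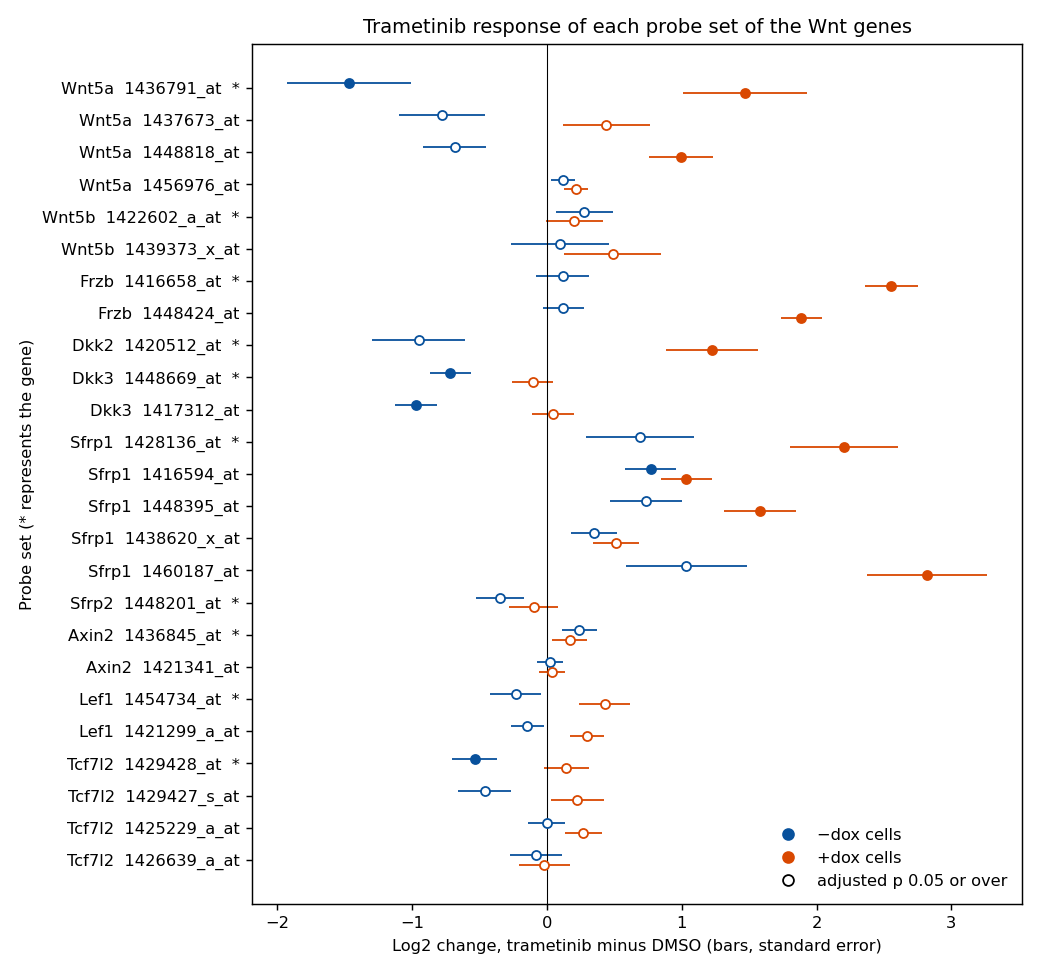
Log2 change with trametinib (x axis, bars of 1 SE) of each of the 25 probe sets in −dox (blue) and +dox cells (orange), with filled points where the adjusted p in the fit of all 34945 probe sets was under 0.05. Changes are as fitted, under background too. All 5 probe sets of Sfrp1 lie above 0 in both cell states.

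Between +dox and −dox cells under DMSO, Dkk2 was the only one of the 10 genes that passed the test, where 6.15% of all genes passed, 2.87% as rises and 3.28% as falls. It rose by at least 0.82 (adjusted p = 0.040). This was lost when −dox DMSO replicate 1 (adjusted p = 0.073) or 3 (0.053) was left out, and likewise for +dox DMSO replicate 1, 2 or 3 (0.096, 0.079 and 0.12), −dox trametinib replicate 3 (0.058) or +dox trametinib replicate 2 (0.054). With the replicate number as a block, 3 genes passed, since Frzb (adjusted p = 0.031 against 0.066, both means under background) and Sfrp1 (adjusted p = 0.038 against 0.25, change −0.86) passed too. Dkk3 was lower in +dox cells without overlap but did not pass (adjusted p = 0.071), and passed without −dox DMSO replicate 1 (adjusted p = 0.031). Wnt5a had a change of −0.88 (adjusted p = 0.32), or −1.47 without that array (adjusted p = 0.029). Frzb passed also without +dox DMSO replicate 1 (adjusted p = 0.013) or −dox trametinib replicate 2 (adjusted p = 0.045). The groups were without overlap for 3 of the 10 genes, against 22.4% of all genes.

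Between +dox and −dox cells under trametinib, Wnt5a, Frzb and Dkk2 were higher in +dox cells, where 3.37% of all genes passed the test, 1.95% as rises and 1.42% as falls. Dkk2 rose by at least 2.05 (adjusted p = 2.16e-04), Frzb by at least 2.04 (adjusted p = 2.17e-05) and Wnt5a by at least 2.04 (adjusted p = 0.032). Frzb and Dkk2 kept the call without any 1 array. Wnt5a lost it when any of these was left out: −dox trametinib replicate 1 or 3 (adjusted p = 0.061 and 0.13), +dox trametinib replicate 2 or 3 (0.10 for each) or +dox DMSO replicate 2 or 3 (0.051 and 0.052). Sfrp1, Lef1 and Tcf7l2 were higher in +dox cells without overlap and did not pass the test (changes 0.65, at least 0.28 and 0.43, adjusted p = 0.53, 0.31 and 0.24). That makes 6 of the 10 genes without overlap, against 20.1% of all genes. This comparison shares the +dox trametinib arrays with that of trametinib in +dox cells.

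Of 94 other genes of the pathway, 92 were measured, and the groups of the pathway responded to trametinib as follows. In −dox cells 14 rose and 5 fell, or 20.7% against 22.4% of all genes. In +dox cells 20 rose and 3 fell, or 25.0% against 26.2%. Shares near those of all genes are no result about the pathway. Of all genes, 11.6% rose in −dox and 13.8% in +dox cells. The antagonists had 3 rises among 10 measured genes in −dox cells and 5 in +dox cells, with no fall. These were Sfrp4, Kremen1 and Apcdd1 in both cell states and Sost and Sostdc1 in +dox cells. Sostdc1 was under background in both +dox groups, so its rise has no size, and it was lost without +dox DMSO replicate 1 or +dox trametinib replicate 1 (adjusted p = 0.096 and 0.11). Among the ligands, 3 of 17 rose in −dox and 2 of 17 in +dox cells, and of the receptors 3 of 16 rose in each cell state. Of 3 genes of ligand release, 1 rose in −dox and 2 in +dox cells, and of 9 nuclear partners 0 and 3. Of 9 planar polarity genes 1 and 2 rose, and of 9 genes of the R-spondin module 1 in each. Of 12 transducers 2 rose in each cell state, and of 7 targets 0. The falls were in ligand release, receptors, transducers and targets. Differences between the roles were not tested.

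Apcdd1, a membrane-bound Wnt inhibitor, had log2 values of 7.49, 7.65 and 7.66 in −dox DMSO and of 8.70, 8.66 and 8.83 in −dox trametinib cells. Values in +dox cells were 7.24, 6.68 and 6.37 with DMSO and 10.67, 9.67 and 10.33 with trametinib. Every trametinib array was thus above every DMSO array of the same cell state, and Apcdd1 rose by 3.46 ± 0.25 in +dox cells (SE, adjusted p = 9.35e-06). Sost, or sclerostin, an LRP-binding antagonist best known from bone, had 5.45, 6.57 and 6.10 on the +dox trametinib arrays and was under background on the other 9. It rose in +dox cells by at least 1.18 (adjusted p = 3.41e-05). Both also passed the test of the difference between the responses, as 2 of the 92 genes (2.17% against 0.33% of all genes). Leaving out any 1 of 7 arrays ended this call of Sost and any 1 of 8 that of Apcdd1 (highest adjusted p = 0.095 and 0.080), and the count of 2 became 0 to 2.

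Ror1, a receptor of Wnt5a, had log2 values of 6.27, 5.45 and 5.88 with DMSO and 6.93, 8.27 and 8.09 with trametinib in −dox cells. The +dox cells had 5.25, 4.02 and 3.87 with DMSO and 8.09, 8.03 and 8.16 with trametinib. It was higher with trametinib without overlap in both cell states and rose by 1.90 ± 0.40 (SE, adjusted p = 0.0057) and by at least 3.23 (adjusted p = 7.76e-05). Prickle1, a planar polarity protein, rose in +dox cells by at least 2.15 (adjusted p = 3.76e-04). Its change in −dox cells was 0.97, with overlap, and did not pass (adjusted p = 0.061) but passed with the replicate number as a block (adjusted p = 0.045). It also passed there without −dox trametinib replicate 1 or −dox DMSO replicate 2 (adjusted p = 0.0075 and 0.027). In −dox cells the ligand Wnt9a rose by 1.83, the R-spondin receptor Lgr4 by 1.78 and the formin Daam1 by 1.14, while the co-receptor Ptk7 fell by 2.09 and the transducer Dvl2 by 0.77 (adjusted p = 2.08e-04, 3.55e-04, 3.96e-04, 0.0086 and 0.0032). Wnt9a, Lgr4 and Daam1 rose in +dox cells too, by 1.40, 1.83 and 0.48 (adjusted p = 6.51e-04, 2.00e-04 and 0.036), and leaving out any 1 of 5 arrays ended that call of Daam1 (highest adjusted p = 0.15). The changes of Ptk7 and Dvl2 in +dox cells were −1.16 and −0.32 and did not pass (adjusted p = 0.099 and 0.15). Ccnd1 and Myc, targets of the canonical branch that also lie downstream of MEK, had log2 changes of −3.51 and −3.44 in −dox and of −2.33 and −3.97 in +dox cells (highest adjusted p = 2.13e-04). The other 5 targets of the list did not pass the test in either cell state. Notum, an enzyme that inactivates Wnt ligands, fell in both cell states, in −dox cells by 0.50 (adjusted p = 0.018) and in +dox cells by 0.50 (adjusted p = 0.014). The first call was lost without −dox DMSO replicate 3 or −dox trametinib replicate 2 or 3 (adjusted p = 0.073, 0.057 and 0.067), and the second without +dox trametinib replicate 1 (0.060).

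**Figure D4:**
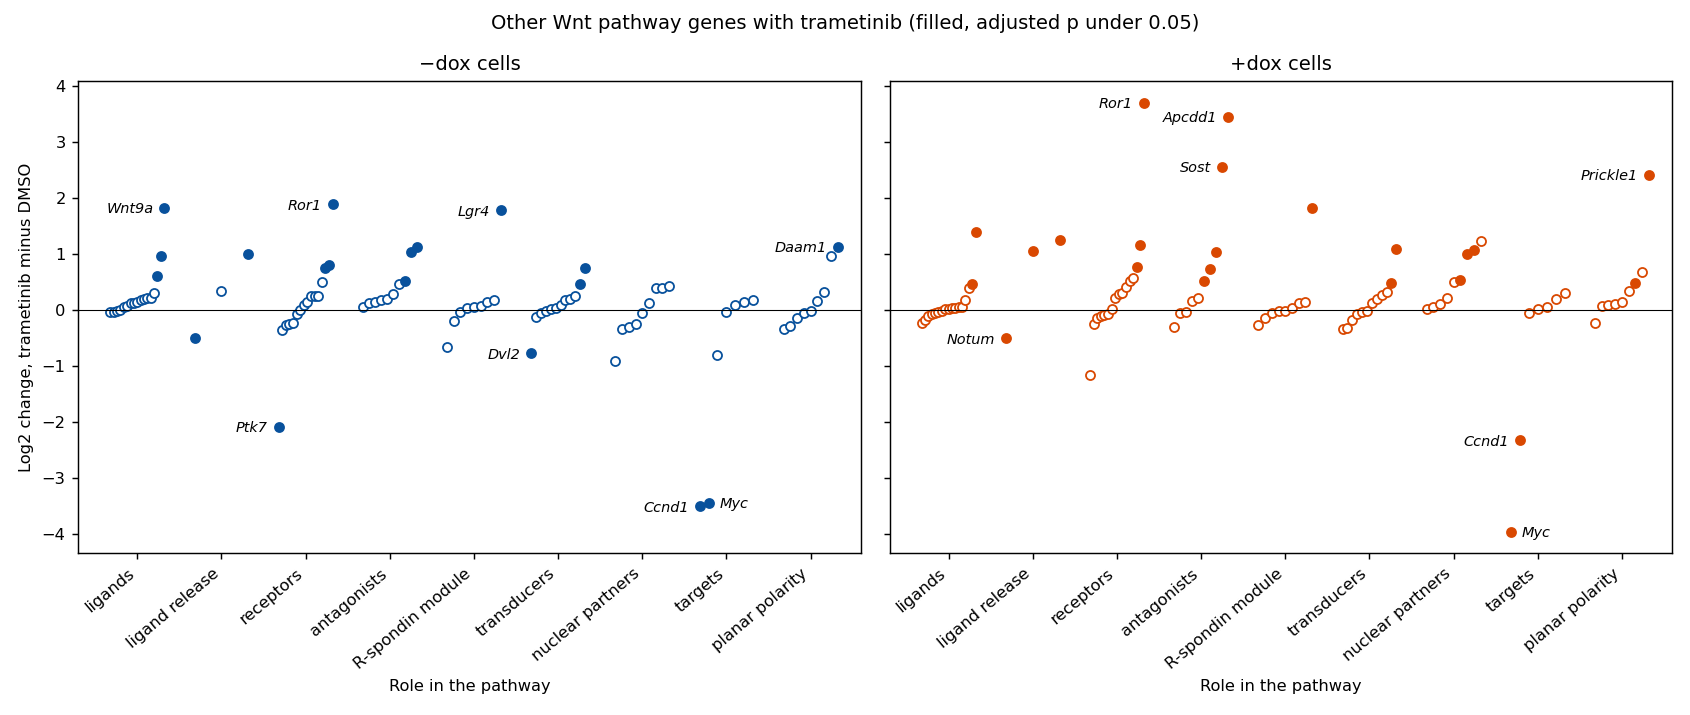
Log2 change with trametinib (y axis) of 92 other Wnt pathway genes by role (x axis) in −dox and +dox cells, with filled points for an adjusted p under 0.05. Apcdd1, Sost and Ror1 are the highest in +dox cells, and Ccnd1 and Myc the lowest in both cell states.

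With dox, 9 of the 92 genes passed under DMSO (9.78% against 6.15% of all genes) and 9 under trametinib (9.78% against 3.37%). Under DMSO the receptor Fzd3 rose by 1.18 and the co-repressor Tle4 by 0.80 (adjusted p = 0.0060 and 0.0059), and the ligand Wnt9a rose by 0.84 (adjusted p = 0.041). The antagonist Wif1 passed as well but was under background in both groups. The co-repressor Tle2 fell by 2.88, the receptor Fzd6 by 1.70, the receptor Fzd1 by 1.20 and the nuclear factor Tcf7l1 by 1.32 (adjusted p = 0.013, 0.015, 0.047 and 0.033). The call of Tle2 ended without +dox DMSO replicate 2 or 3, and that of Fzd6 without these or −dox DMSO replicate 3, while those of Wnt9a, Fzd1 and Tcf7l1 ended without any 1 of 6, 9 and 5 arrays (highest adjusted p = 0.17, 0.17 and 0.14). Under trametinib Sost rose by at least 1.18, Ccnd1 by 1.503, Apcdd1 by 1.49 and Tle4 by 1.40, and the ligand Wnt4 fell by 1.74 (adjusted p = 0.0010, 0.0038, 0.0075, 1.86e-04 and 0.0088). Fzd6 fell by 1.49 (adjusted p = 0.037), a call that ended without any 1 of 6 arrays (highest adjusted p = 0.15).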

How the data were processed

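Total RNA of C790 cells was hybridised to Affymetrix mouse genome arrays, and the authors normalised the array files by RMA in Chipster (version not given in the sources used here). The deposited values are log2 intensities per probe set and were used as they are; RMA puts all arrays on one distribution and the table holds no detection calls. Of 45101 probe sets, 64 control probe sets, 932 with several genes and 9160 with no listed gene were left out, which gave 18193 genes. The trametinib dose on the arrays is not given in the sources used here.

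One model with 4 group means was fitted to the 12 arrays (lmFit and eBayes of limma 3.58.1, R 4.3.3), with Benjamini-Hochberg adjustment over all genes and a threshold of 0.05. The background level is the 95th percentile of the receptor probe sets. The fit was tested on simulated data, in which 200 of the 18193 genes had a log2 change of 1. It called 45% of these for the difference between the responses and 72.5% to 84% for the other comparisons. False calls were 5 to 10 per comparison. The simulated arrays varied independently, with the spreads shuffled among genes, and far fewer genes changed than passed with trametinib here. These figures therefore need not hold for the real arrays. The deviations of same-numbered arrays from their group means were compared by correlation. It was over 0.1 in every pair for trametinib in +dox cells (lowest 0.160), dox under DMSO (0.170) and dox under trametinib (0.212). For trametinib in −dox cells it was 0.298, 0.456 and 0.022 for replicates 1, 2 and 3, which include the highest and the lowest value of all pairs. No label gives a pairing, and the main fit treated the arrays as unpaired in every comparison. The replicate number entered as a block only as an alternative. The 10 genes, the lists and the rule for named genes (all 10 genes, up to 4 rises and 4 falls of other pathway genes per comparison, and the 5 profiles most like Wnt5a) were chosen with earlier results of these data known. Alternatives were the replicate block, the arrays and probe sets used, a filter on low values, normalisation, array weights, eBayes options, the threshold, the background level and leaving out each array. The number of arrays limits the precision.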

Additional observations from a re-analysis of the deposited data

Results flagged for a closer look

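Of the genes named, 3 passed the limma test of the difference between both trametinib responses. Frzb differed by 2.44, Apcdd1 by 2.33 and Sost by 2.10, each higher in +dox cells (adjusted p = 0.0075, 0.027 and 0.032). Frzb and Sost were under background on all 6 −dox arrays, so the sizes of their differences are not exact, whereas Apcdd1 was above background on all 12 arrays and rose by 1.13 in −dox and by 3.46 in +dox cells. The call of Frzb held without any 1 array. That of Sost ended without any 1 of 7 arrays (replicate 2 or 3 of −dox DMSO, −dox trametinib or +dox DMSO, or +dox trametinib replicate 3), with adjusted p up to 0.095. That of Apcdd1 ended without any 1 of 8 arrays (the same 7 and +dox trametinib replicate 1), with adjusted p up to 0.080.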

How the results depend on the processing

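Of the recomputed counts of the 10 genes called, 82 stayed within 1.5 times the reported count and 27 did not, and of those of the other pathway genes 82 did and 22 did not. For trametinib in −dox cells, 3 of the 10 genes and 19 other pathway genes were called. With a fold change over 2 these were 1 and 9, with array weights 6 and 31, and the 10 genes had 1 call both with only the compared arrays and with the mean of the probe sets. For trametinib in +dox cells, the 20 rises and 3 falls of other pathway genes became 14 calls with a fold change over 2. For the difference between the responses, 1 of the 10 genes became 2 with the replicate block (Wnt5a passed, adjusted p = 0.043) and 5 with array weights, and 2 other pathway genes became 1 with the mean of the probe sets and 10 with array weights. For dox under DMSO, 1 of the 10 genes became 3 with the replicate block, 0 with only the compared arrays or with every probe set tested on its own, 2 with the mean of the probe sets and 5 with array weights, and 9 other pathway genes became 4 with only the compared arrays and 30 with array weights. The cause of these changes was not tested, apart from the fold threshold, which can only lower a count. With the replicate block Sfrp1 passed also for trametinib in −dox cells (adjusted p = 0.043), where the correlations of same-numbered arrays were 0.298, 0.456 and 0.022. Lef1 passed with the block for trametinib in +dox cells (adjusted p = 0.029), which made 5 calls of 4. The block changed no other call of the 10 genes.

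Without 1 array, the 10 genes had 1 to 5 calls for trametinib in −dox cells, 2 to 5 in +dox cells, 1 to 4 for the difference, 0 to 2 for dox under DMSO and 2 to 3 for dox under trametinib, and the other pathway genes 15 to 21, 19 to 27, 0 to 2, 2 to 12 and 5 to 11. Changes that turned sign had not passed the test. The difference for Wnt5b was 0.16 with the mean of the probe sets and 0.022 with array weights, and Sfrp2 with dox under trametinib was −0.013 with arrays centred on their medians and −0.061 with array weights. Without 1 array, Wnt5b had −0.033 to 0.44 and Frzb −0.07 to 0.21 for trametinib in −dox cells, Sfrp2 −0.22 to 0.018 in +dox cells, Wnt5b −0.24 to 0.24 and Axin2 −0.19 to 0.038 for the difference, Axin2 −0.13 to 0.068 for dox under DMSO, and Wnt5b −0.38 to 0.10 and Sfrp2 −0.11 to 0.14 for dox under trametinib. With the background level at the 90th or 99th percentile of the receptor probe sets (4.59 or 5.42), the least rise of Frzb with trametinib in +dox cells was 2.31 or 1.48. Signal over background limits what can be read of Sfrp2, Axin2, Lef1 and Dkk3, of Frzb and Dkk2 in −dox cells, and of Wnt5a in −dox cells with trametinib.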
